A study of Homo sapiens with 10 samples.

Results

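The response of the cell lines MDSL and SKM1 to OR21 was compared gene by gene. OR21 is the code the labels use for OR-2100, which the title of the series calls a hypomethylating agent. For each gene the response of a line was the log2 intensity of its treated array minus that of its control array, and the response difference was the MDSL response minus the SKM1 response. A positive response difference means a larger gain, or a smaller loss, in MDSL. These 4 arrays, of 10 in the series, were chosen because both lines received 100 nM OR21, while the HL60 and K562 cells received 500 nM. All 17687 named genes entered. The 4 groups were MDSL Control, MDSL OR21 treated, SKM1 Control and SKM1 OR21 treated, each 1 array and each labelled 96 h. Both lines are labelled as cell lines of myelodysplastic syndrome, a blood stem cell disorder in which maturation fails. No source used here says whether the control cells received a vehicle. The culture media differed, because MDSL was grown with interleukin-3 and 2-mercaptoethanol and SKM1 was not, so the line and its medium cannot be told apart. With 1 array per condition, every value below is a size with no replicate check and no test.

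Hypomethylating agents lower DNA methylation as cells divide, because the methyltransferase DNMT1 no longer copies the mark to the new strand. Genes whose promoters are held silent by methylation can then be transcribed, among them cancer-testis genes, which in healthy adults are read mainly in germ cells. Such agents are also known to raise interferon-stimulated genes, to slow the cell cycle and to move myeloid cells toward maturation.

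A value at or under 5.42 log2, the highest of the 4 array medians of background probes, was taken as not above background, and 10618 genes lay above this floor on all 4 arrays. Between 11816 and 11979 genes per array lay above it, and the gene medians of the arrays ran from 6.86 to 7.05 log2. Control probe sets on the arrays gave a spread for comparison. Among 63 probe sets for ERCC spike transcripts the response difference had an SD of 0.23 log2 and 0 passed 2-fold. Whether this spike RNA was added to the samples was not checked. Among 612 negative control probe sets, most of them dim, the SD was 1.56 and 42.0% passed 2-fold. The 5622 genes with a mean level at or under the floor spread less than these controls, with an SD of 0.65 and 9.30% past 2-fold. A 2-fold difference in a dim gene still lies within what unspecific probes gave, and its noise is not known without replicates. Blood cell markers were high on all 4 arrays, with PTPRC between 13.83 and 14.88 log2, and the monocyte enzyme gene LYZ between 15.22 and 17.37. The progenitor marker CD34 was at 14.68 and 13.71 in control and treated MDSL but 4.71 and 6.82 in SKM1. The epithelial marker EPCAM, at 4.18 and 4.68 in MDSL, was at 12.46 and 12.06 in SKM1. COL1A1, DCN, CDH5, KDR, KRT5, CDH1 and MS4A1 were not above the floor on any of the 4 arrays, while COL1A2 lay between 9.06 and 9.34 and CD79A between 8.36 and 11.49.

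The responses of the lines overlapped in part. At the 2-fold size, 1170 genes (6.62%) were higher with OR21 in MDSL and 864 (4.88%) lower, and in SKM1 1255 (7.1%) were higher and 791 (4.47%) lower. The 443 genes higher in both made up 37.9% of those higher in MDSL and 35.3% of those higher in SKM1. The 281 genes lower in both made up 32.5% and 35.5%. Opposite moves were few, with 15 genes higher in MDSL and lower in SKM1 and 16 the other way. Across the 10618 genes above the floor on 4 arrays, Pearson's r between the responses was 0.55 and Spearman's rho 0.55, a description across genes, which are not independent replicates. The lines share no array.

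The response difference had a median of -0.03 and an SD of 0.79 log2 over all named genes. It reached 2-fold in favour of MDSL in 1053 genes (5.95%) and in favour of SKM1 in 1182 (6.68%), so 47.1% of these pointed to MDSL. Centring each array on its gene median gave 1294 and 958 genes, so that 57.5% pointed to MDSL. Which side holds more genes therefore depends on the scaling. The shares of 5.95% and 6.68% are the background for the counts toward MDSL and SKM1 in the gene lists below. For counts of list members higher or lower with OR21 within a line, the background is 6.62% and 4.88% in MDSL. In SKM1 it is 7.1% and 4.47%. Among genes above the floor on 4 arrays the counts were 570 (5.37%) and 701 (6.6%). Of the 1053 genes, 507 were at least 2-fold higher with OR21 in MDSL, 223 were at least 2-fold lower in SKM1, and in 338 neither line reached 2-fold. Of the 1182 genes, 602 were at least 2-fold higher in SKM1, 236 were at least 2-fold lower in MDSL, and 360 reached 2-fold in neither line.

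**Figure D1:**
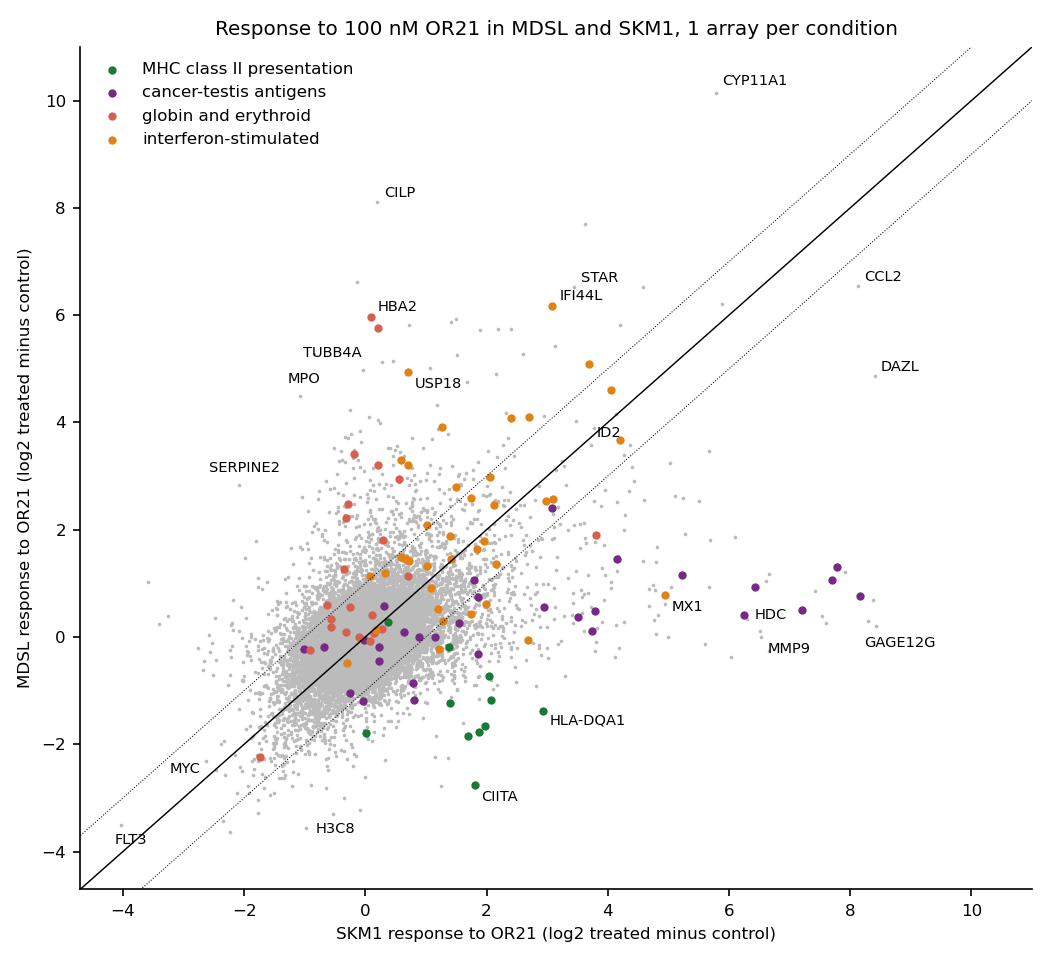
Response to OR21 of each named gene in SKM1 (horizontal axis, log2 treated minus control) against MDSL (vertical axis, same unit), with 1 array per condition. The solid line marks equal responses, the dotted lines a 2-fold response difference, and coloured points are members of 4 gene lists. Most MHC class II genes lie below and right of the origin, the globin genes HBA1 and HBA2 above it, and the strongest cancer-testis genes along the horizontal axis.

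Some of the largest responses were shared. The 6 genes with the largest common gain and a response difference within 0.5 log2 were TRIB2, ID2, RAB27B, CYTIP, ANXA2 and S100A9. ID2, whose protein blocks the DNA binding of helix-loop-helix factors, went from 11.93 to 15.52 log2 in MDSL and from 9.04 to 12.77 in SKM1. The calcium-binding protein gene S100A9, abundant in mature myeloid cells, went from 8.93 to 11.77 and from 10.83 to 14.13. The largest common losses were those of MYC, SLC2A5, MANEAL, PRIM1, CDCA7L and GINS1. MYC, the growth regulator, went from 13.99 to 11.51 in MDSL and from 14.41 to 11.94 in SKM1, a difference between the responses of -0.01. CDKN1A, which encodes the cell cycle inhibitor p21, gained 4.03 log2 in MDSL (7.06 to 11.09) and 3.48 in SKM1 (6.12 to 9.60).

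The 12 genes with the largest response difference toward MDSL, among those above the floor on 4 arrays, were HBA2, MPO, HBA1, TGM5, SERPINE2, TUBB4A, LINC01140, USP18, CAVIN2, ANXA4, RAB6B and PRKAR2B. MPO encodes myeloperoxidase, the main enzyme of primary granules. It was at 8.62 log2 in control and 13.11 in treated MDSL, and at 17.08 and 15.99 in SKM1, so the lines moved toward each other and the response difference was 5.58. The protease inhibitor gene SERPINE2 also moved in opposite directions, from 10.07 to 12.90 in MDSL and from 11.70 to 9.63 in SKM1, a difference of 4.91. The tubulin gene TUBB4A started close in both lines and gained in MDSL, at 9.92 and 15.05 against 10.41 and 10.69 in SKM1 (difference 4.85). The transglutaminase gene TGM5 was at 6.89 and 12.70 in MDSL and at 9.12 and 9.84 in SKM1, and PRKAR2B, a regulatory subunit of protein kinase A, at 10.04 and 13.51 against 9.14 and 8.75. In 6 more genes values under the floor were raised to it. The difference toward MDSL was then 7.26 log2 for the matrix gene CILP, 5.28 for the carbonic anhydrase gene CA1 and 5.09 for C4BPA. It was 4.45 for the platelet receptor gene CLEC1B, 3.92 for the retinal dehydrogenase gene ALDH1A1 and 3.83 for the chemokine receptor gene CCR4. Only for ALDH1A1 is this a minimum size. In the others both SKM1 arrays lay under the floor, so an unmeasured SKM1 response was counted as 0. CILP was at 4.58 and 12.68 in MDSL and at 4.73 and 4.92 in SKM1.

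**Figure D2:**
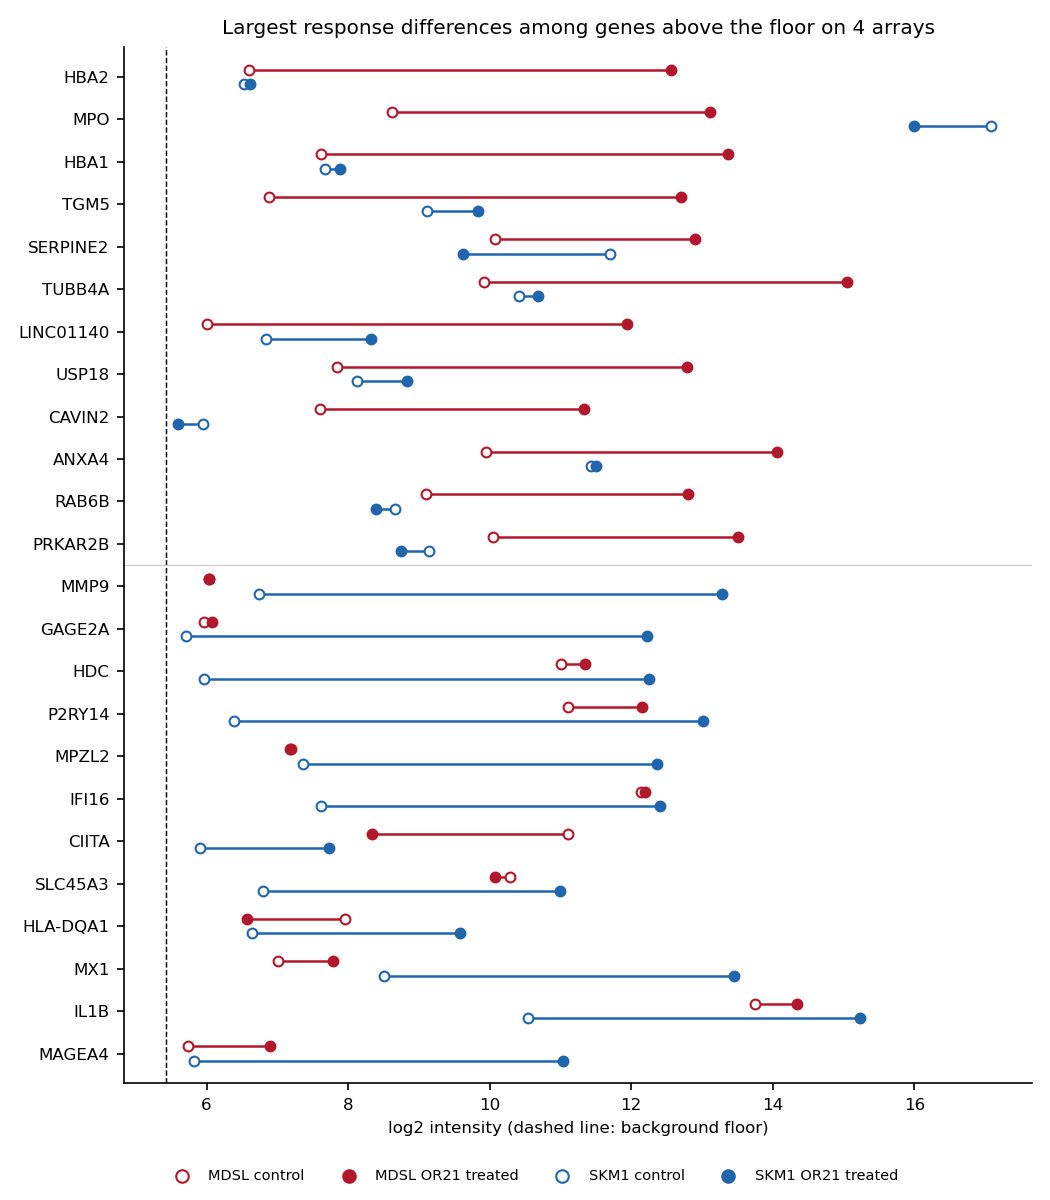
Log2 intensity (horizontal axis) of the 12 genes with the highest and the 12 with the lowest response difference among genes above the floor on 4 arrays. Open circles are control arrays and filled circles OR21 treated arrays, in red for MDSL and blue for SKM1, and the dashed line is the background floor. MPO falls in SKM1 while it gains in MDSL, and HDC, IFI16 and IL1B lie in treated SKM1 within 2-fold of treated MDSL.

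Several globin genes and several platelet genes gained in MDSL with little or no gain in SKM1. The alpha globin gene HBA2 was at 6.60 log2 in control and 12.57 in treated MDSL and at 6.52 and 6.61 in SKM1, a response difference of 5.88. Its near-identical neighbour HBA1 was at 7.62 and 13.37 against 7.67 and 7.89 (difference 5.54), and probes may not tell these copies apart. The beta globin gene HBB went from 7.87 to 11.27 in MDSL and lay near the floor in SKM1, at 5.50 and 5.31. Of 23 erythroid genes measured, 10 (43.5%) had a response difference of at least 2-fold toward MDSL and 1 (4.35%) toward SKM1. The shares of all named genes were 5.95% and 6.68%, and the list median was 0.80. Among these 10, HBZ, ALAS2 and EPB42 were above the floor on 1 array each. Their differences fell to 0.55, 0.73 and 0.96 with values raised to the floor. Other members did not gain in MDSL. The globin gene HBQ1 and the receptor gene EPOR had MDSL responses of 0.07 and 0.09, and BCL11A was lower in both lines. AHSP, the alpha globin chaperone, the globin gene HBM and the red cell membrane gene SLC4A1 were under the floor on all 4 arrays. The median response of these 23 genes was 0.59 in MDSL and -0.10 in SKM1.

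Of 21 megakaryocyte and platelet genes, 13 were at least 2-fold higher with OR21 in MDSL and 6 in SKM1, against 6.62% and 7.1% of all named genes. The response difference was 2-fold toward MDSL in 9 (42.9%) and toward SKM1 in 2 (9.52%), beside 5.95% and 6.68% of all named genes. Other members did not gain in MDSL. PF4 and NFE2 had MDSL responses of 0.10 and -0.26, and GP9 was not above the floor on any array. THBS1 pointed to SKM1, with responses of 0.12 in MDSL and 1.51 in SKM1. CLEC1B was at 4.89 and 9.87 log2 in MDSL and at 3.90 and 3.87, under the floor, in SKM1. The chemokine gene PPBP was at 7.05 and 10.19 against 5.18 and 4.98, and MMRN1, which encodes a platelet granule protein, at 7.00 and 10.09 against 4.96 and 4.94. Of the transcription factors in these lists, GATA1, the transcription factor of erythroid cells and megakaryocytes, went from 10.99 to 12.88 in MDSL and from 6.49 to 10.29 in SKM1, a difference of -1.90 toward SKM1. The integrin gene ITGA2B went from 13.62 to 15.32 in MDSL and from 6.91 to 10.85 in SKM1, and GFI1B from 10.46 to 13.65 and, from just under the floor at 5.38, to 8.66. TAL1, a factor of blood stem cells and erythroid cells, pointed to MDSL, with responses of 1.38 and -0.49 in MDSL and SKM1. The median response of the platelet list was 1.71 in MDSL and 0.11 in SKM1, the latter of either sign depending on the scaling (-0.03 to 0.18). The median of the members' response differences was 0.10, much less than the gap between these medians. In these bulk samples a larger share of cells of a type and more RNA per cell cannot be told apart.

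Promoters of the erythroid list held the GATA motif AGATAA (either strand, in the 250 bases before the start) in 30.8% of the 13 in the RefSeq promoter table, against 6.90% of all 14236 matched genes. In the platelet list the share was 21.4% of 14. These shares are 4 and 3 promoters, and other lists came close, with 26.7% of 15 mast cell and 20.8% of 24 chemokine promoters. The erythroid and platelet promoters were also poor in CpG (medians 5 and 2.5, against 18 over all matched genes), so all genes are an unlike background. The pair below, on GRCh38.p14, belongs to genes that gained in MDSL and not in SKM1, with AGATAA in capitals. TUBB4A holds the motif 2 times side by side at 235 and 229 bases before the start, and CLEC1B once, as its reverse complement. A match describes the letters only.
TUBB4A, chr19:6502849-6503098, minus strand: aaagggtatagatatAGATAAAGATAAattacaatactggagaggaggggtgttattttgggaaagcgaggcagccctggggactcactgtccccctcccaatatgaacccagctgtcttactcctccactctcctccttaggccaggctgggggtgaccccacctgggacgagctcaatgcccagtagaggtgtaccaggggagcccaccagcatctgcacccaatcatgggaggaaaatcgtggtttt
CLEC1B, chr12:9999122-9999371, minus strand: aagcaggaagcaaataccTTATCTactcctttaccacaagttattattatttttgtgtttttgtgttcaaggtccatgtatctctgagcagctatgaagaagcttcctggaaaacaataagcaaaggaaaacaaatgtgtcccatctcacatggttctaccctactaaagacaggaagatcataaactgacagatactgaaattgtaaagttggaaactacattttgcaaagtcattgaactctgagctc

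**Figure D3:**
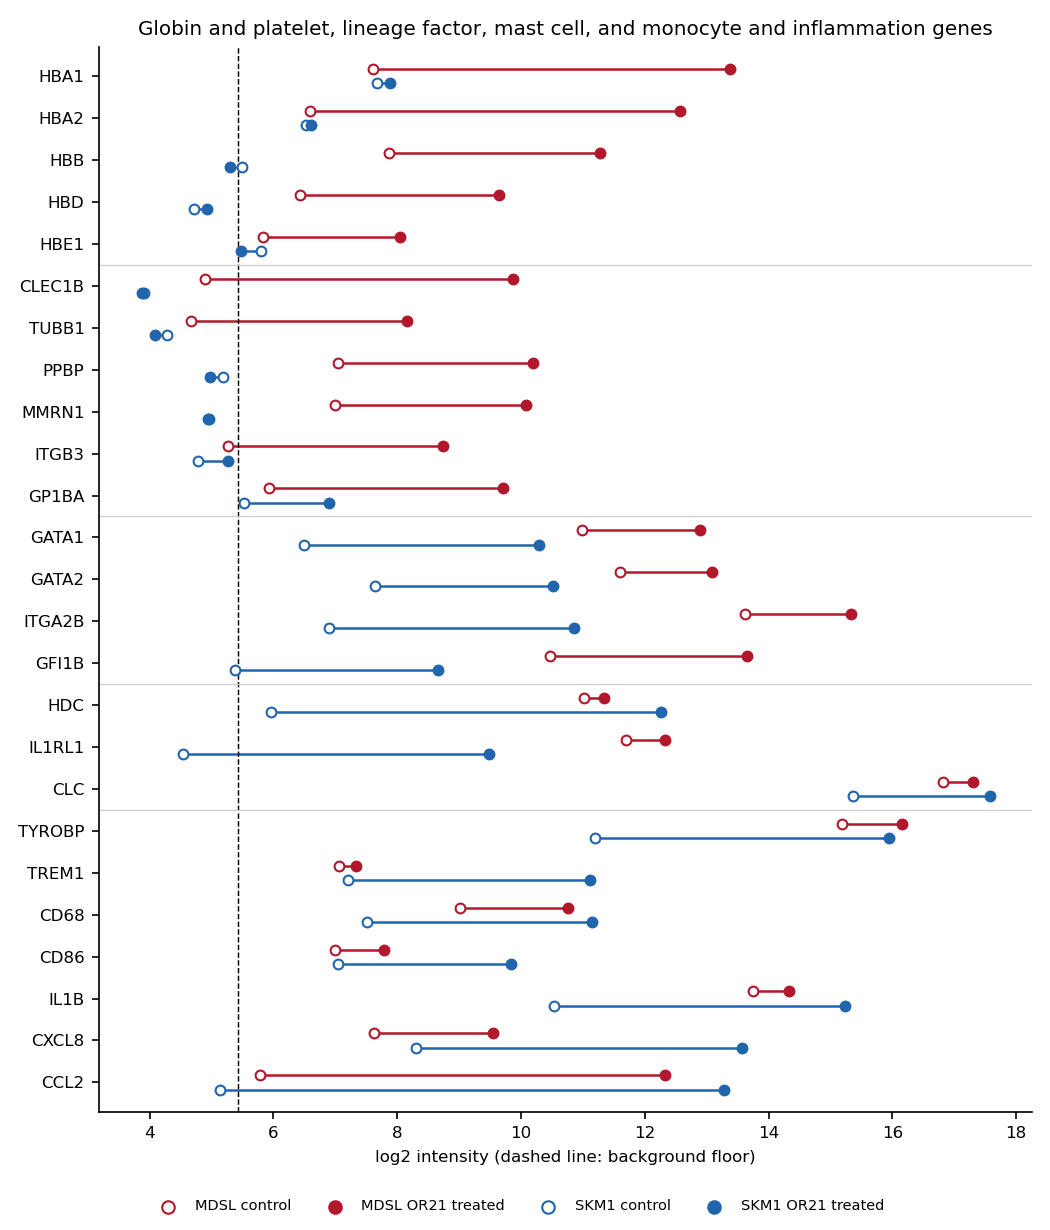
Log2 intensity (horizontal axis) of globin, platelet, lineage factor, mast cell, and monocyte and inflammation genes, in blocks from top to bottom. Open circles are control arrays, filled circles OR21 treated arrays, red MDSL and blue SKM1, and the dashed line is the background floor. The globin and platelet genes shown were taken from members that gained in MDSL, and GP1BA also gained in SKM1. GATA1, GATA2, ITGA2B, GFI1B and most genes of the lower blocks move in SKM1, from a lower control level in most cases.

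The 12 genes with the largest response difference toward SKM1, above the floor on 4 arrays, were MMP9, GAGE2A, HDC, P2RY14, MPZL2, IFI16, CIITA, SLC45A3, HLA-DQA1, MX1, IL1B and MAGEA4. MMP9, a gelatinase released by neutrophils and macrophages, was at 6.04 log2 on both MDSL arrays and went from 6.75 to 13.28 in SKM1. HDC, which encodes the histamine-forming enzyme of mast cells and basophils, was at 11.01 and 11.35 in MDSL and went from 5.96 to 12.26 in SKM1. The nucleotide sugar receptor gene P2RY14 was at 11.11 and 12.14 in MDSL and went from 6.39 to 13.01. The DNA sensor gene IFI16 was at 12.14 and 12.19 in MDSL and went from 7.61 to 12.41 in SKM1. For HDC, P2RY14, IFI16, SLC45A3 and IL1B the treated arrays lay within 1 log2 of each other, while the controls lay 3.21 to 5.06 log2 apart, with MDSL higher.

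That form was common among gains in SKM1. Of the 357 genes above the floor on 4 arrays that were at least 2-fold higher in treated SKM1 with a response difference of at least 2-fold, 183 (51.3%) had a control level at least 2-fold higher in MDSL, against 1378 of all 10618 genes. In 103 of them (28.9%) the treated arrays also lay within 2-fold. The mirror case was less frequent, since 78 of 307 MDSL gains (25.4%) had a control level at least 2-fold higher in SKM1, against 1593 of all 10618, and in 48 the treated arrays lay within 2-fold. The response difference contains the control arrays, so these shares are descriptions and are not independent of it. Of the 6 genes at 12 log2 or more on both MDSL arrays and not above the floor in control SKM1, 4 were above the floor in treated SKM1, and of the 9 genes that met the same rule with the lines exchanged, 3 were above it in treated MDSL.

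MHC class II genes moved in opposite directions. Class II molecules present peptides to helper T cells, and CIITA is the factor that switches their genes on. Of 11 members measured, 8 were at least 2-fold lower with OR21 in MDSL and 9 at least 2-fold higher in SKM1. A response difference of at least 2-fold toward SKM1 was seen in 10. The shares of all named genes were 4.88%, 7.1% and 6.68%. The list medians were -1.38 in MDSL, 1.82 in SKM1 and -3.26 for the difference. CIITA went from 11.10 to 8.34 log2 in MDSL and from 5.91 to 7.73 in SKM1. HLA-DPB1 went from 15.17 to 13.40 and from 10.20 to 12.08, and HLA-DRB1 from 12.90 to 11.05 and from 8.05 to 9.74. In all 3 genes MDSL still held the higher level after treatment. HLA-DQA1 crossed over, from 7.95 to 6.57 in MDSL and from 6.64 to 9.58 in SKM1. The invariant chain gene CD74 had responses of -1.18 and 2.08. HLA-DOA, under the floor on 3 of 4 arrays, was the member that did not reach 2-fold in the difference. Probes for HLA genes read alleles that can differ between lines, and how much that shifts a level was not tested. MHC class I genes moved little, with medians of -0.05 in MDSL and 0.13 in SKM1, each of either sign depending on the scaling.

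Class II promoters were poor in CpG, the dinucleotide that methylation targets, with a median of 2.5 in the 250 bases before the start of 8 genes, against 18 over all 14236 matched genes. The Y box ATTGGC, part of the class II promoter module, was present on either strand in 37.5% of these 8 and in 16.9% of all. It is not particular to class II genes, since 53.8% of 26 mitosis and 66.7% of 18 cholesterol synthesis promoters held it. The windows of HLA-DQA1 and CD74 are shown on GRCh38.p14 with it in capitals, 68 and 54 bases before the start.
HLA-DQA1, chr6:32637156-32637405, plus strand: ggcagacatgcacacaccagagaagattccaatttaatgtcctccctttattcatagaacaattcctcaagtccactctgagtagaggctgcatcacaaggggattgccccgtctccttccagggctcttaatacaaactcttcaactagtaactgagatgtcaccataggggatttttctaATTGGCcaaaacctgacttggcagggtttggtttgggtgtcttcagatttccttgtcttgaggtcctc
CD74, chr5:150412911-150413160, minus strand: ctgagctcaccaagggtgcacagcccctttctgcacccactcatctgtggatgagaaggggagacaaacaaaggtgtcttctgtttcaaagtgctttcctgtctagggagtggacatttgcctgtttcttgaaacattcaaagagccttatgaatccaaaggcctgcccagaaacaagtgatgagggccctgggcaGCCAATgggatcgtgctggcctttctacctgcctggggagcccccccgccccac

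Cancer-testis genes gained in SKM1. Of 30 measured, 18 were at least 2-fold higher with OR21 in SKM1 and 6 in MDSL, against 7.1% and 6.62% of all named genes. The response difference reached 2-fold toward SKM1 in 19 and toward MDSL in 0, against 6.68% and 5.95%. The medians were 0.32 in MDSL, 1.82 in SKM1 and -1.45 for the difference, and 10 of the 30 lay above the floor on all 4 arrays. GAGE2A was at 5.97 and 6.08 log2 in MDSL and went from 5.71 to 12.22 in SKM1. MAGEA4 was at 5.74 and 6.89 in MDSL and went from 5.82 to 11.04 in SKM1. The 6 largest differences toward SKM1 with values raised to the floor were all of the GAGE and CT45A families. They were 7.74 log2 for GAGE12G, 7.05 for CT45A3, 6.98 for CT45A5, 6.92 for CT45A1, 6.71 for CT45A10 and 6.20 for GAGE13. Only for GAGE12G is this a minimum size. In the others both MDSL arrays lay under the floor, so an unmeasured MDSL response was counted as 0. Copies within these families are nearly identical and can share probes, so they do not count as separate observations. PRAME, with gains of 2.40 and 3.08, was among the 6 members at least 2-fold higher in both lines.

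These families weighed on chromosome X. Of 709 genes there, 103 (14.5%) had a response difference of at least 2-fold toward SKM1, against 4.94% to 9.30% on single autosomes. Of 81 X-linked genes whose symbols mark them as GAGE, CT45, CT47, MAGE, PAGE, XAGE, SSX, CSAG, SPANX, VCX or SAGE family members, a grouping chosen after the values were seen, 45 (55.6%) pointed to SKM1 and 0 to MDSL. Of the other 628 genes, 58 (9.24%) pointed to SKM1 and 41 (6.53%) to MDSL. Germ cell genes outside these families moved the same way in part, with 17 of 35 (48.6%) toward SKM1 and 2 (5.71%) toward MDSL. The shares of all named genes were 6.68% and 5.95%. Of the 35 germ cell genes 6 lay above the floor on all 4 arrays and 11 on none. TEX11 and DDX4, counted toward SKM1, were among those above it on none. DAZL, an RNA-binding protein of germ cells, went from 4.14 to 9.00 in MDSL and from 4.62 to 13.03 in SKM1, from under the floor in both. MAEL, which acts in transposon silencing, was at 4.51 and 5.44 in MDSL and went from 4.86 to 10.53 in SKM1, also from under it.

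The promoters of 25 cancer-testis genes had a median of 10 CpG in 250 bases, below the 18 of all matched genes and above the class II genes. The 3 windows below, from GRCh38.p14, show GAGE2A, MAGEA4 and CT45A1 with CpG in capitals, because their gain in SKM1 and low level in MDSL carry this result. They hold 8, 6 and 7 CpG.
GAGE2A, chrX:49589246-49589495, plus strand: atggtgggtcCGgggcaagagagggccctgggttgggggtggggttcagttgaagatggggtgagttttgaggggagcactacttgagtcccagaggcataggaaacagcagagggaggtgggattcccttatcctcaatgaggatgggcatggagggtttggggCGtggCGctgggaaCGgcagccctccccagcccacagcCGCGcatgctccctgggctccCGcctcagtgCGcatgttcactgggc
MAGEA4, chrX:151912224-151912473, plus strand: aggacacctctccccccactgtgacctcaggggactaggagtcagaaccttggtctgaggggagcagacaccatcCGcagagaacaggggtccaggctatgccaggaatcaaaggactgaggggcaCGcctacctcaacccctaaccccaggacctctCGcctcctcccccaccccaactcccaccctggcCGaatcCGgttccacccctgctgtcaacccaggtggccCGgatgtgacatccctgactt
CT45A1, chrX:135713389-135713638, plus strand: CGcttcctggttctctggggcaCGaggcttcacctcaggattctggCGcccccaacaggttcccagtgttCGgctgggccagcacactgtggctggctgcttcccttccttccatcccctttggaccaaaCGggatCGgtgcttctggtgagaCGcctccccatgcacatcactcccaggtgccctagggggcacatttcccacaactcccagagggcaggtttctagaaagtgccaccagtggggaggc
Methylation was not measured on these arrays. Over all matched genes, those higher by 2-fold in MDSL with a difference toward MDSL had a median of 16 CpG (n = 409), the SKM1 counterpart 15 (n = 450), those higher in both lines 14 (n = 354) and those lower in both 20 (n = 241). The gains of both lines thus lay on the CpG-poorer side, and the lines differed by 1 CpG.

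Interferon-stimulated genes gained in both lines but to unequal degrees by gene. Of 38 measured, 28 were at least 2-fold higher in MDSL, 28 in SKM1 and 20 in both, and 0 were 2-fold lower in either. The shares of all named genes at least 2-fold higher were 6.62%, 7.1% and 2.50%. The medians were 1.72 and 1.45. The response difference was 2-fold toward MDSL in 11 and toward SKM1 in 5, with a median of 0.41. USP18, which removes ISG15 from proteins and damps interferon receptor signalling, went from 7.84 to 12.78 log2 in MDSL and from 8.13 to 8.83 in SKM1. IFI44L went from 4.30, under the floor, to 10.48 in MDSL and from 3.94 to 7.01 in SKM1, and XAF1 from 8.79 to 12.10 and from 7.67 to 8.26. MX1, a GTPase that blocks viruses, showed the reverse order, at 7.01 and 7.79 in MDSL and at 8.50 and 13.45 in SKM1. Its neighbour MX2 was at 9.57 and 9.50 in MDSL and went from 6.76 to 9.45 in SKM1. IRF9, the DNA-binding subunit of the interferon-activated complex, gained 4.60 and 4.05. Among 18 nucleic acid sensors, 5 (27.8%) pointed to SKM1 and 1 (5.56%) to MDSL, beside 6.68% and 5.95% of all named genes. The RNA sensor gene RIGI was at 8.56 and 8.18 in MDSL and went from 7.93 to 9.20 in SKM1, and EIF2AK2, the RNA-activated kinase PKR, went from 10.41 to 12.79 and from 10.80 to 11.77.

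**Figure D4:**
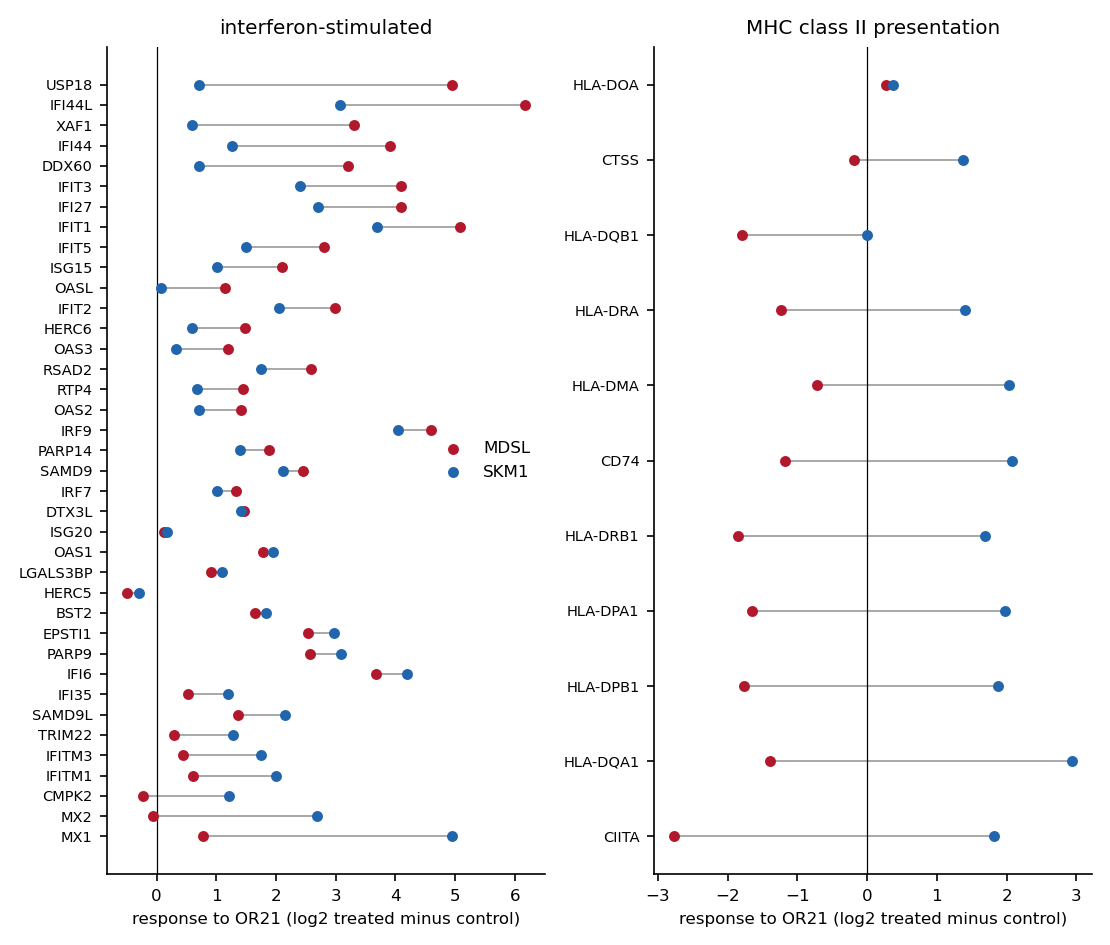
Response to OR21 (horizontal axis, log2 treated minus control, 1 array per condition) of each measured interferon-stimulated gene (left) and MHC class II gene (right), red for MDSL and blue for SKM1, ordered by response difference. Most interferon-stimulated genes lie right of 0 in both lines, with USP18 and MX1 at opposite ends of the order, while most class II genes lie left of 0 in MDSL and right of it in SKM1.

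The interferon response element, searched as GAAANNGAA on either strand, was in 67.7% of the 31 interferon-stimulated promoters in the table and in 5.93% of all matched genes. With 1 more A at its end the shares were 64.5% and 2.64%. Below, on GRCh38.p14 with the element in capitals, are IFIT1, which went from under the floor in both controls (4.55 in MDSL and 4.06 in SKM1) to 9.63 and 7.74, IFI44L, which gained more in MDSL, and MX1, which gained in SKM1. IFIT1 and IFI44L hold it 2 times each and MX1 in this window 0 times. Only 1 start per gene was searched, so the 0 for MX1 does not cover any other start of the gene.
IFIT1, chr10:89392373-89392622, plus strand: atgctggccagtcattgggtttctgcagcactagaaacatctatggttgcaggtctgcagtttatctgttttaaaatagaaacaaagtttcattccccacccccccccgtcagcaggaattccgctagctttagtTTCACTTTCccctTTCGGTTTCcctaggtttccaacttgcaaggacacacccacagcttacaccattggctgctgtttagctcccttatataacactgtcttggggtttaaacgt
IFI44L, chr1:78620198-78620447, plus strand: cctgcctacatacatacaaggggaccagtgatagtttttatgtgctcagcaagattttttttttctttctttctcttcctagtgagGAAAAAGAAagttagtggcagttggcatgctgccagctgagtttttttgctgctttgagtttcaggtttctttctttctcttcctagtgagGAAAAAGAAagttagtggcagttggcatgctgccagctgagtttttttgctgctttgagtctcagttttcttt
MX1, chr21:41420308-41420557, plus strand: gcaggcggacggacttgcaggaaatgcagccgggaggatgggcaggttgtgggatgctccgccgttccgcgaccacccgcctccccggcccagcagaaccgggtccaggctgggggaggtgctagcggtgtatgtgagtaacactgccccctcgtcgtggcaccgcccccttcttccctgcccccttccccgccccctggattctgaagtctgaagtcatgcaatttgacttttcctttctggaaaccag

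Genes of mature myeloid cells and of inflammation gained more in SKM1. Of 42 myelomonocytic genes, 25 were at least 2-fold higher in SKM1, 17 in MDSL and 14 in both, against 7.1%, 6.62% and 2.50% of all named genes. The medians were 1.62 in SKM1 and 0.85 in MDSL. The response difference was 2-fold toward SKM1 in 19 and toward MDSL in 2. TYROBP, a signalling adaptor of myeloid receptors, was at 15.19 and 16.16 log2 in MDSL and went from 11.19 to 15.94 in SKM1. TREM1, a receptor that amplifies inflammation, was at 7.06 and 7.34 in MDSL and went from 7.21 to 11.11 in SKM1. CYBB, the catalytic subunit of the phagocyte oxidase, gained in both (3.25 and 5.03), as did the integrin gene ITGAM (2.52 and 4.16). Of 27 NF-kB and inflammation genes, 10 (37.0%) pointed to SKM1 and 1 (3.70%) to MDSL, beside 6.68% and 5.95% of all named genes. The medians were 0.53 in MDSL and 1.23 in SKM1. The cytokine gene IL1B was at 13.75 and 14.34 in MDSL and went from 10.54 to 15.23 in SKM1. The neutrophil attractant gene CXCL8 went from 7.63 to 9.55 and from 8.30 to 13.57. CCL20 was under the floor on both MDSL arrays and went from 7.10 to 11.88 in SKM1. CCL2, a monocyte attractant, gained strongly in both, from 5.78 to 12.32 and from under the floor, 5.14, to 13.27.

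Mast cell and basophil genes split by gene, with 7 of 20 toward SKM1 and 4 toward MDSL. IL1RL1, the interleukin-33 receptor, was at 11.70 and 12.32 in MDSL and went from 4.54, under the floor, to 9.48 in SKM1. The eosinophil peroxidase gene EPX went from 4.74, under the floor, to 8.43 in MDSL and from 5.37 to 6.46 in SKM1. The stem cell factor receptor gene KIT was lower in both, from 12.54 to 10.55 and from 12.55 to 10.17. The primary granule genes split 3 and 3 of 17 (17.6% each way). PRTN3, a granule protease, was at 8.51 and 8.30 in MDSL and went from 15.43 to 12.67 in SKM1, and CST7 was at 15.88 and 16.23 in MDSL and went from 8.67 to 11.79.

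Cytokine receptor and STAT target genes were listed because the MDSL medium held interleukin-3. CSF2RB, the shared receptor chain for interleukin-3, was at 15.49 and 14.86 in MDSL and went from 9.18 to 10.80 in SKM1. PIM1, a kinase gene switched on by STAT5, was at 14.97 and 15.39 in MDSL and went from 6.73 to 10.14 in SKM1. IL2RG was at 14.90 and 15.18 in MDSL and went from 6.97 to 11.24. PIM2 did the opposite, from 10.56 to 13.73 in MDSL and 10.45 to 10.36 in SKM1. Of 29 genes in this list 5 (17.2%) pointed to MDSL and 8 (27.6%) to SKM1, beside 5.95% and 6.68% of all named genes. The part of the medium in these values was not tested.

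Proliferation genes were lower in both lines, and the mitosis and histone genes more so in MDSL. Of 32 mitosis genes, 29 were at least 2-fold lower in MDSL and 15 in SKM1, with medians of -1.63 and -0.90, and the response difference was 2-fold lower in MDSL in 9 and higher in 1. The kinase gene PLK1 went from 13.09 to 11.17 log2 in MDSL and from 14.48 to 13.88 in SKM1. The spindle gene PRC1 went from 11.93 to 10.27 and from 12.39 to 12.14. BUB1, a checkpoint kinase, was the exception, at 11.46 and 12.10 in MDSL and 12.49 and 11.29 in SKM1. Of 35 DNA replication genes, 31 were 2-fold lower in MDSL and 27 in SKM1, 25 of them in both, with medians of -1.77 and -1.44. The response difference was at least 2-fold lower in MDSL in 5 of these 35 (14.3%) and higher in 1 (2.86%), with a median of -0.35. Of 39 replication-dependent histone genes, whose copies are much alike, 26 were 2-fold lower in MDSL and 22 in SKM1, and 8 had a difference of at least 2-fold with the lower response in MDSL. H3C8 went from 11.08 to 7.53 and from 11.62 to 10.64. The 16 Fanconi and homologous recombination genes had a median response of -0.65 in MDSL and of -1.02 in SKM1, while the median of their response differences was -0.28, so these summaries point opposite ways. Of 29 ribosome biogenesis genes 15 were at least 2-fold lower in MDSL and 8 in SKM1, against 4.88% and 4.47% of all named genes. In this list 1 gene (3.45%) had a difference of at least 2-fold each way, below the 5.95% and 6.68% of all named genes.

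Cholesterol synthesis genes were lower in SKM1. Of 20 measured, 14 were at least 2-fold lower in SKM1 and 2 in MDSL, against 4.47% and 4.88% of all named genes. The medians were -1.14 in SKM1 and -0.25 in MDSL. The difference was 2-fold toward MDSL in 7 and toward SKM1 in 1. DHCR7, the last enzyme of the pathway, was at 12.35 and 11.90 log2 in MDSL and went from 12.73 to 10.06 in SKM1. IDI1 was at 12.75 and 13.21 in MDSL and went from 12.61 to 11.47 in SKM1. TMEM97, a sterol-regulated membrane protein gene, was the 1 toward SKM1, from 10.83 to 7.55 in MDSL and from 14.09 to 12.33. The gene with the largest measured gain in MDSL was CYP11A1, which cleaves the cholesterol side chain in steroid synthesis. It was under the floor in both controls, at 5.29 in MDSL and 5.37 in SKM1, and reached 15.43 and 11.15, so the response difference of 4.28 taken at the floor is that of the treated levels. STAR, which carries cholesterol into mitochondria, went from 8.73 to 15.26 in MDSL and from 9.08 to 12.51 in SKM1. Of the 15 steroid synthesis genes 4 were at least 2-fold higher in MDSL and 3 in SKM1, and the list had a median difference of 0.22.

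**Figure D5:**
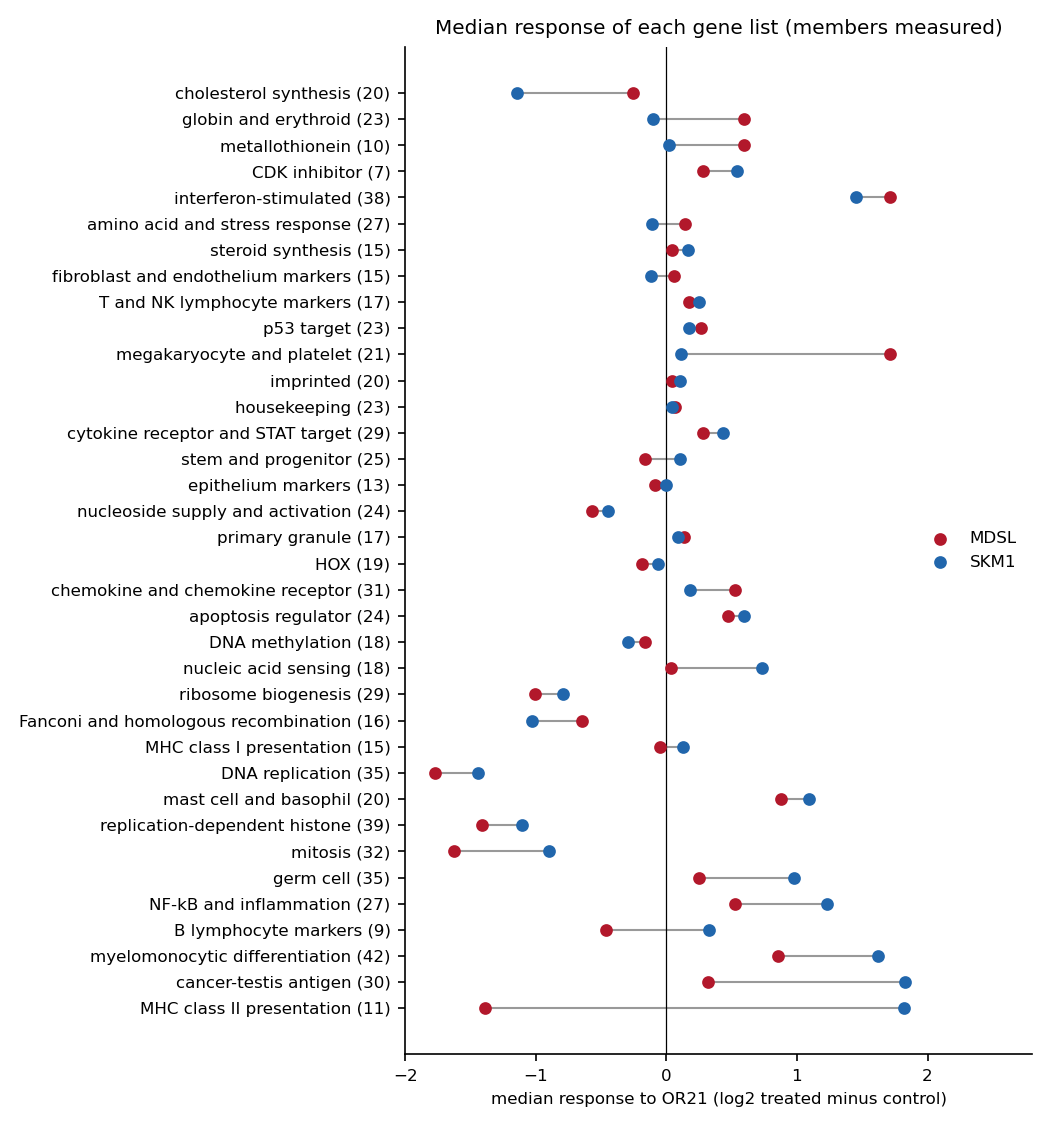
Median response to OR21 (horizontal axis, log2 treated minus control) of 36 gene lists in MDSL (red) and SKM1 (blue), with the number of measured members in brackets and the lists ordered by the median of their members' response differences, which need not equal the gap between the points. MHC class II lies at the bottom with medians of -1.38 and 1.82, cholesterol synthesis at the top with -0.25 and -1.14, and the mitosis and DNA replication lists have both medians below 0.

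DNMT1, the maintenance methyltransferase, went from 11.38 to 9.48 log2 in MDSL and from 11.01 to 9.89 in SKM1, and its partner UHRF1 from 10.09 to 8.10 and from 12.16 to 10.83. DNMT3A gained in both, from 7.14 to 9.80 and from 6.93 to 8.98. TET2, which oxidises methylcytosine, was at 10.39 and 10.86 in MDSL and went from 7.08 to 9.15 in SKM1. Of 18 genes in the list 2 had a response difference of at least 2-fold, that is 11.1% beside 6.68% of all named genes toward SKM1, namely TET2 and the chromatin remodeller gene HELLS, both toward SKM1. For nucleoside supply, the kinase gene DCK was at 10.73 and 11.40 in MDSL and 11.16 and 10.98 in SKM1. CDA, the deaminase that degrades cytidine analogues, was under the floor on both MDSL arrays, so its response difference of 1.17 turned to -1.13 once values were raised to the floor, and its direction is not settled. The CTP synthase gene CTPS1 moved apart, from 10.52 to 12.18 in MDSL and from 11.97 to 10.75 in SKM1. NT5E, a surface nucleotidase, was at 6.33 and 5.59 in MDSL and went from 6.50 to 9.80 in SKM1.

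Stem and progenitor genes had a median response of -0.17 in MDSL. Their medians in SKM1 and of the difference lay near 0, with a sign that depended on the scaling. In this list 5 of 25 (20.0%) pointed to SKM1 and 2 (8.00%) to MDSL, beside 6.68% and 5.95% of all named genes. SOX4 went from 12.36 to 9.13 log2 in MDSL and was at 8.00 and 7.91 in SKM1. FLT3 went from 8.84 to 5.33, under the floor, in MDSL and from 10.31 to 6.27 in SKM1. The anti-apoptotic gene BCL2A1 went from 13.58 to 14.98 in MDSL and from 5.83 to 10.63 in SKM1, and 2 of 24 apoptosis regulators pointed to SKM1 and 0 to MDSL. In the p53 target list 2 of 23 pointed each way (8.70%), and both lists lay near the 5.95% and 6.68% of all named genes. Metallothionein genes, near-identical copies, had a median response of 0.59 in MDSL and 0.02 in SKM1, the latter of either sign depending on the scaling. Of markers of other cell types, 4 of 17 for T and NK cells (23.5%) pointed to MDSL and 1 to SKM1, and 4 of 9 for B cells (44.4%) pointed to SKM1 and 0 to MDSL. For fibroblasts and endothelium it was 1 of 15 toward MDSL and 2 toward SKM1, and for epithelium 0 of 13 either way, beside 5.95% and 6.68% of all named genes toward MDSL and SKM1. Of these lists 5 T and NK markers and 5 B cell markers were above the floor on 4 arrays. CD2, a T cell surface gene, went from 5.81 to 8.53 in MDSL and was under the floor in SKM1.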

How the data were processed

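Total RNA was biotin-labelled and read on single-colour arrays, per the labels. The authors deposited linear intensities per probe set, from 4.25 to 405294; background correction, normalization and software are not given in the sources used here. Log2 was taken without a pseudocount or further scaling, in Python 3.11.15 with pandas 2.3.3 and numpy 2.4.6. A platform annotation gave 1 gene symbol to 17709 probe sets, and for 20 genes with several the probe set with the highest mean was kept. Promoter sequences are from RefSeq. Intensities give no read depth, and the number of arrays limits the precision. Whether separate cultures were used is not stated.

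The members and the 36 gene lists were chosen with earlier results of these data known. Named genes were the 12 with the highest and the 12 with the lowest response difference above the floor on 4 arrays. Added to them were, each way, the 6 largest differences with values raised to the floor, opposite moves and shared moves. Up to 5 per list by size of difference and 13 fixed genes completed the choice. Other list members are given as responses. Exceptions given as levels are the cell type markers and ITGA2B, GFI1B, KIT, FLT3 and IFIT1, which this rule did not pick. Motifs and shown promoters were chosen after the values were seen. Alternatives were quantile normalization, median centring, spike scaling, floors, a pseudocount of 32, leaving out dim genes and averaging probe sets. The counting script was tested on simulated data. Levels of XIST and Y-linked genes were left out.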

Additional observations from a re-analysis of the deposited data

Results flagged for a closer look

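Genes above the floor on 4 arrays that moved at least 2-fold in opposite directions in the lines stand out, and the difference was not tested because each condition has 1 array. In 10 genes the level was higher with OR21 in MDSL and lower in SKM1. These were MPO, with a response difference of 5.58 log2, SERPINE2 with 4.91, the lipoprotein receptor gene SCARB1 with 3.66, the protease inhibitor gene SLPI with 3.47, CTPS1 with 2.89, the aldolase gene ALDOC with 2.75, PRELID2 with 2.69, AIG1 with 2.65, the pentose phosphate enzyme gene RPIA with 2.56 and the fatty acid desaturase gene FADS2 with 2.41. In 14 genes the level was lower in MDSL and higher in SKM1, and 7 of them are in the MHC class II list, in which CIITA had -4.58, HLA-DQA1 -4.32, HLA-DPB1 -3.64, HLA-DPA1 -3.63, HLA-DRB1 -3.54, CD74 -3.26 and HLA-DRA -2.64. The other 7 were RAB7B with -4.04, PLXND1 with -3.61, HSH2D with -3.22, the lymphoid transcription factor gene IKZF2 with -3.02, PTPRCAP with -3.01, PHACTR1 with -2.53 and TARP with -2.25.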

How the results depend on the processing

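The counts of genes with a response difference of at least 2-fold, 1053 toward MDSL and 1182 toward SKM1, came to 646 and 705 with a pseudocount of 32. They were 529 and 428 with a floor of 8.37 log2, the 95th percentile of negative control probe sets, a setting added after seeing the data. Under the other 6 settings both stayed within 1.5 times. With that high floor the list medians became -2.64 for MHC class II and 0.00 for the germ cell, cancer-testis, histone, erythroid and B lymphocyte lists, since more members lie at the floor. The cancer-testis median was -0.93 with the pseudocount and -2.69 without dim genes. The floor at the background median gave 0.28 for the mast cell list and -0.21 for the B lymphocyte list. CDA reversed to -1.13 at the background floor. GINS4, HELLS, POLA2 and ZMAT3 reversed at the high floor, to 0.64, 0.44, 0.95 and 0.62. Quantile normalization, median centring and spike scaling moved none of the 222 named genes by 0.5 log2. No paired analysis was possible because each group has 1 array.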

Other observations

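Of 23 reference genes commonly used to scale expression, 2 (8.70%) had a response difference of at least 2-fold toward MDSL and 0 toward SKM1. The shares of all named genes were 5.95% and 6.68%, so this list did not stand out. HPRT1, the purine salvage gene, went from 9.22 to 10.04 log2 in MDSL and from 10.87 to 9.55 in SKM1, a response difference of 2.13. ALAS1, the housekeeping form of the enzyme that starts haem synthesis, went from 12.37 to 15.21 and from 11.76 to 12.48, a difference of 2.12. The other 21 of 23 reference genes had a response difference under 2-fold.

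Among amino acid genes, PHGDH, the first enzyme of serine synthesis, was at 6.06 and 5.73 log2 in MDSL and went from 11.95 to 9.98 in SKM1, and the asparagine synthetase gene ASNS was at 6.91 and 7.08 in MDSL and went from 12.13 to 11.04. The pyrimidine gene DHODH went from 8.38 to 7.56 and from 11.25 to 9.23. In a further metabolic gene, the ribose enzyme RPIA, levels went from 8.02 to 9.38 in MDSL and from 10.13 to 8.94 in SKM1.

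Of 20 imprinted genes 1 pointed to MDSL and 3 to SKM1 by at least 2-fold, and of 19 HOX genes 1 (5.26%) each way, beside 5.95% and 6.68% of all named genes. Above the floor on 4 arrays were 6 of the imprinted and 2 of the HOX genes. DLK1 was the imprinted gene with the largest difference, at 5.46 and 6.45 in MDSL and, from under the floor, 5.24 and 8.07 in SKM1.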
